A study of Mus musculus with 4 samples.

Results

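The Schlafen genes are a mouse gene family of 7 named members here, Slfn1, Slfn2, Slfn3, Slfn4, Slfn5, Slfn8 and Slfn9. They were followed in bone marrow derived macrophages that lacked, or kept, PP2ACα, the product of Ppp2ca and 1 of the catalytic subunits of protein phosphatase 2A. A member was measured where the platform's probe annotation gave a feature of the array only that gene's symbol, and where a gene had several such features the brightest on average was taken. This gave 6 of the 7 members, each with 1 such feature, out of 22180 genes in all. Slfn9 had none, since its feature is shared with Slfn8. The family was selected on the knockout against control values themselves, which were already known when it was proposed. Those values therefore describe the members, and no p-value is given for them.

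RNA was taken from macrophages grown out of mouse marrow over 6 days with L-cell supernatant as the source of growth factor. The cells were then stimulated with lipopolysaccharide (LPS, 100 ng/ml for 2 hours), the bacterial cell wall component sensed by Toll-like receptor 4. The control genotype, PP2ACαfl/fl, carried Ppp2ca alleles with a floxed exon and no Cre recombinase. The knockout genotype, PP2ACαfl/fl;lyM-Cre, carried the same alleles and a Cre that the labels describe as acting in myeloid cells. Each genotype was measured on 2 one-colour arrays labelled as biological replicates, with no statement of whether these came from separate mice. SDs therefore measure only the spread between these arrays, and the number of arrays limits the precision. Every culture had received LPS. The controls carried no Cre, so effects of Cre itself, of any change at its locus and of the deletion cannot be told apart. Mouse age and strain were not given in the sources used here.

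Schlafen proteins carry a conserved N-terminal core with a divergent AAA domain. Mouse members are usually sorted by length into short proteins (Slfn1, Slfn2), intermediate ones with an added linker domain (Slfn3, Slfn4) and long ones with a helicase-like C-terminal part (Slfn5, Slfn8, Slfn9). Many are known as interferon-induced genes. Slfn1 was first described for slowing growth of thymocytes and T cells, Slfn2 for keeping T cells and monocytes quiescent and for shielding tRNAs from cleavage, and Slfn4 for its regulation during macrophage differentiation and activation. Several long members and their human relatives are known to cleave or restrict tRNA.

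Promoter sequences are shown so that short shared stretches can be read beside the size of each difference. RefSeq windows of 300 bases (assembly GRCm38.p6, 250 bases before the annotated transcript start to 50 after it) were found for all 7 members, with 2 starts for Slfn8. The core of the interferon-stimulated response element, which is known from the promoters of interferon-induced genes, was searched as GAAANNGAAA on both strands. It was present in the windows of the long members Slfn5, Slfn8 and Slfn9 and in none of Slfn1, Slfn2, Slfn3 and Slfn4, against 3.44% of all 32851 windows. The 3 sequences follow 5′ to 3′ on the gene's strand, with the match in capitals.
Slfn5: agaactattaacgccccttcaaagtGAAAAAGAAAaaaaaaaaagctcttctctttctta
Slfn8: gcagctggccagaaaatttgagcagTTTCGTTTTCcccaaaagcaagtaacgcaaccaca
Slfn9: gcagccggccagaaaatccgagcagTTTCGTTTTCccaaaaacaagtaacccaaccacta
The Slfn5 stretch is at chr11:82951922-82951981 on the plus strand, and its match, on the strand of the gene, begins 155 bases before the start, in a run of A bases. The Slfn8 stretch is at chr11:83020824-83020883 and the Slfn9 stretch at chr11:82991841-82991900, both on the minus strand. Their matches lie on the opposite strand to the gene and begin 48 bases before the first Slfn8 start and 45 before that of Slfn9. The windows of Slfn8 and Slfn9 were 84.0% identical in a global alignment, whereas the other 20 pairs of members, aligned the same way, were 55.7% to 62.3% identical. The window of Slfn5 was 57.3% identical to that of Slfn9 and 61.3% to that of Slfn4, so apart from the match the 3 long members do not form a group by these windows.

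A second stretch came from comparing the short and intermediate members, a group set by protein length. The longest run of bases common to the windows of Slfn1, Slfn2, Slfn3 and Slfn4, on the gene's strand, was the 9 bases ACTTCCTGG, a sequence with the GGAA core known from ETS factor sites on its other strand. It was found by comparing these 4 windows, and 0.843% of all windows held it on either strand. It is shown in capitals, again 5′ to 3′.
Slfn1: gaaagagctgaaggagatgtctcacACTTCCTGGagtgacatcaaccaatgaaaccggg
Slfn2: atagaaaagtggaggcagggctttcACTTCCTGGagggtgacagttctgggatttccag
Slfn3: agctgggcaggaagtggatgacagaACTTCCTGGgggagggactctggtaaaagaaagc
Slfn4: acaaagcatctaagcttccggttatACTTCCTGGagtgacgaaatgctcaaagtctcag
All 4 lie on the plus strand, at chr11:83116721-83116779 for Slfn1, chr11:83065032-83065090 for Slfn2, chr11:83191263-83191321 for Slfn3 and chr11:83175088-83175146 for Slfn4. The run began 74, 55, 42 and 73 bases before the start of Slfn1, Slfn2, Slfn3 and Slfn4. Between Slfn1 and Slfn4 the common run extended to 15 bases, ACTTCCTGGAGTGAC. The interferon gamma activated site, searched as TTCNNNGAA, was in none of the members' windows, against 8.3% of all windows. A match is a run of letters, and no binding was measured in these cells.

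**Figure D1:**
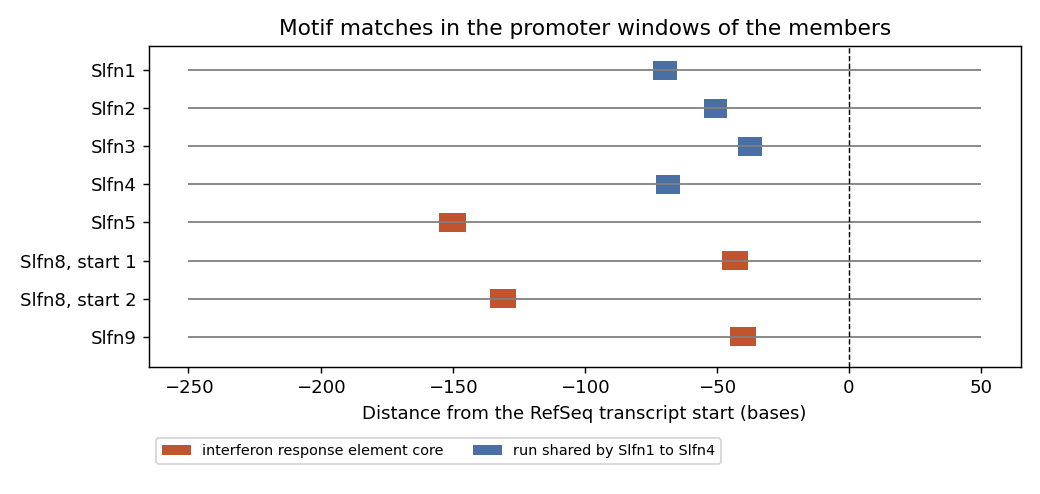
Positions of the 2 motifs in the promoter windows of the 7 members, in bases from the RefSeq transcript start (dashed line), with grey lines for the windows and boxes for the matches. The interferon response element core is drawn in Slfn5, Slfn8 and Slfn9, and the shared 9-base run in Slfn1, Slfn2, Slfn3 and Slfn4, with no window holding both.

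All expression values below are the deposited log2 values made by robust multi-array averaging (RMA), differences are knockout minus control, and SDs are over 2 arrays each. SEs are limma's, which draw each gene's spread toward a value shared by all tested genes. For genes with uneven arrays, such as Slfn4 and Ppp2ca, the SE is therefore smaller than their SDs alone would give. A gene was tested where its mean over the arrays reached 3.53, the median over all deposited features, and all 6 measured members did. Ppp2ca was lower on both knockout arrays, with a difference of -4.04 (SE 0.36, limma adjusted p = 0.0076). Lyz2, the lysozyme gene at the Cre locus, was lower too, with a difference of -5.19 (SE 0.14, limma adjusted p = 0.00095). No tested gene fell further. Whether the fall of Lyz2 bears on the Schlafen values was not tested. Macrophage markers were high in both genotypes: all 7 with a feature were tested, and Fcgr1, at 0.94, was the member of that list that rose, a call lost with any array left out. The array medians lay between 3.50 and 3.57, and correlations between arrays, taken over all features, ranged from 0.986 to 0.990.

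Of the 6 measured members, 5 were higher in knockout macrophages, by 0.62 to 1.87 log2 units, and Slfn2 was at the same level in both genotypes. The median difference was 0.85, against 0.0076 over all 12542 tested genes. In the limma fit across all tested genes, 5 of the 6 passed an adjusted p of 0.05 as higher, where 3.3% of tested genes did so and 6.79% passed in either direction. Of these calls 3 (Slfn1, Slfn4 and Slfn8) were kept without either control array and 0 without either knockout array. The 5 also had both knockout arrays above both control arrays, as 28.8% of tested genes had, and a difference of at least 1.5-fold, as 2.59% had. Because the family was proposed from this contrast, these counts describe how it was chosen and nothing is read from them. In bulk RNA a higher level per cell and a larger share of expressing cells cannot be told apart.

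Of the short members, Slfn1, a gene tied to growth arrest of lymphocytes, had the largest difference of the family. It read 4.60 and 5.17 on the control arrays and 6.85 and 6.66 on the knockout arrays. The groups were far apart, with 1.49 log2 units between the highest control and the lowest knockout array, while the control arrays lay 0.57 apart. The means were 4.88 ± 0.40 and 6.76 ± 0.13 (SD, n = 2 each), a difference of 1.87 (SE 0.20) or 3.67-fold, and 11 tested genes (0.0877%) had a larger one.

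Slfn2, the other short member and the gene of a quiescence factor, gave the opposite picture. Its feature read 11.60 and 11.50 in control and 11.59 and 11.59 in knockout. The knockout arrays lay between the control arrays, so the groups overlapped. The difference was 0.04 (SE 0.09), and 43.2% of tested genes had a larger one. With control replicate 2 left out the difference was -0.012, so its sign is not settled. The feature is bright, with a highest value of 12.94 for any feature on any array, and whether a change at this brightness would have been compressed was not tested.

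The intermediate members were both higher, by unequal amounts. Slfn4, a gene known to change with macrophage differentiation and activation, read 5.14 and 4.16 in control and 6.49 and 6.39 in knockout. Its control arrays were the most uneven of the family, 0.98 apart, while its knockout arrays were 0.10 apart, and the groups still did not overlap. The means were 4.65 ± 0.69 and 6.44 ± 0.07 (SD, n = 2 each), a difference of 1.79 (SE 0.31) or 3.47-fold. It moved between 1.30 and 2.28 when arrays were left out 1 at a time, the lower value coming without control replicate 2 and the higher without control replicate 1.

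Slfn3, a gene studied in T cells and in the differentiation of intestinal epithelium, read 7.23 and 7.02 in control and 7.77 and 7.71 in knockout. The groups did not overlap, and the gap of 0.48 between them was larger than the 0.22 between the control arrays. The difference was 0.62 (SE 0.11) or 1.53-fold, the smallest of the 5 that were higher. Control replicate 1 was the higher of the control arrays for Slfn2, Slfn3, Slfn4 and Slfn5 and the lower for Slfn1 and Slfn8, so no control array was low throughout the family.

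The long members differed by 0.72 and 0.98 and had the closest control arrays among those that were higher. Slfn5, an interferon-inducible member known as a transcriptional repressor, read 9.10 and 8.95 in control and 9.77 and 9.70 in knockout. Its groups stood 0.61 apart, against 0.15 between the control arrays, and the difference was 0.72 (SE 0.10) or 1.64-fold. Slfn8, a long member with the helicase-like part, read 6.47 and 6.61 in control and 7.50 and 7.54 in knockout. Here the gap between groups, 0.90, was 6.65 times the larger of the gaps between replicates, the highest such ratio of the family, and the difference was 0.98 (SE 0.09) or 1.98-fold.

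**Figure D2:**
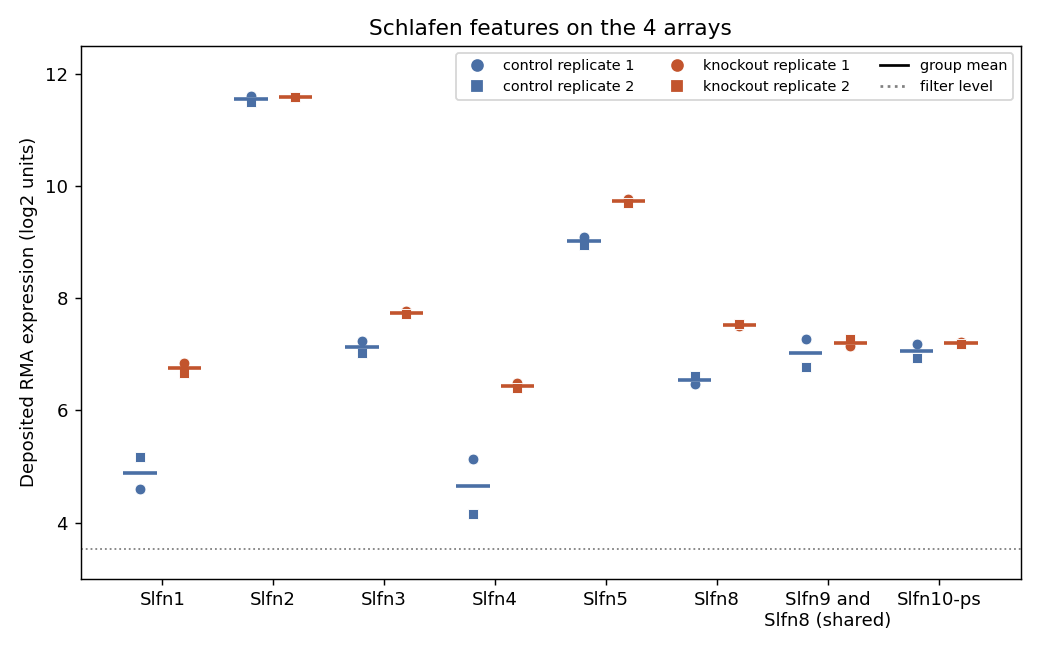
Deposited RMA expression (log2 units) of the 6 measured members, of the feature shared by Slfn9 and Slfn8, and of the pseudogene Slfn10-ps, on each of the 4 arrays. Circles and squares are replicates 1 and 2, bars are group means (n = 2) and the dotted line is the filter level of 3.53. Knockout arrays lie above control arrays for Slfn1, Slfn3, Slfn4, Slfn5 and Slfn8, by small amounts for Slfn10-ps, and overlap with them for Slfn2 and the shared feature.

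Slfn9 is represented only by a feature annotated to both Slfn9 and Slfn8. That feature read 7.28 and 6.77 in control and 7.14 and 7.28 in knockout. The groups overlapped, and the means differed by 0.19, against 0.98 for the feature of Slfn8 alone. What part of the signal came from either gene was not tested, and close paralogs of this family may also share signal in features annotated to 1 gene. A second shared feature, annotated to Slfn5 and its antisense RNA Slfn5os, was dim, at 3.92 and 4.05 in control and 3.89 and 3.93 in knockout.

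The relatives outside the 7 members gave little difference. Slfn10-ps, a transcribed pseudogene in the cluster, read 7.18 and 6.93 in control and 7.22 and 7.18 in knockout. Its groups were 0.0019 apart, and the difference of 0.15 (SE 0.11, limma adjusted p = 0.48) did not pass. Slfn14, a long member known for a role in platelets and red cells, and Slfnl1, a Schlafen-like gene on another chromosome, had means of 2.43 and 3.23, below the filter, and were not tested.

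The members sit in 1 cluster, in the RefSeq order Slfn5, Slfn9, Slfn8, Slfn10-ps, Slfn2, Slfn1, Slfn4 and Slfn3, with other loci between them. Read along that order, the differences were 0.72 for Slfn5, 0.98 for Slfn8, 0.15 for Slfn10-ps, 0.04 for Slfn2, 1.87 for Slfn1, 1.79 for Slfn4 and 0.62 for Slfn3. The pair with the smallest differences, Slfn10-ps and Slfn2, thus lies in the middle of the cluster, between members that were higher. The pair with the largest, Slfn1 and Slfn4, follows it. The lncRNA Gm20234, between Slfn2 and Slfn1, differed by -0.19 (SE 0.22, limma adjusted p = 0.64).

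Genes around the cluster were not used to choose the family and were tested. Of the 10 protein-coding genes on each side and the other loci inside, 21 of 27 had a feature and 11, Slfn10-ps among them, were tested. None rose and 1 fell, against 3.3% and 3.49% of all tested genes, and the median difference was 0.12. An unadjusted limma p under 0.05 was reached by 2 of the 11, against 3099 of all 12542 tested genes. Nle1, a ribosome assembly factor before Slfn5 in the order, fell by 0.53 (SE 0.09, adjusted p = 0.036), and that call was lost with any array left out. Unc45b and Slfn14, which adjoin the cluster on its 2 sides, were below the filter. Ap2b1, an adaptor subunit of clathrin coats, differed by 0.02 (SE 0.10, adjusted p = 0.94), and Ccl5, a chemokine gene and the tenth gene after the cluster, by 0.68 (SE 0.14, adjusted p = 0.052).

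**Figure D3:**
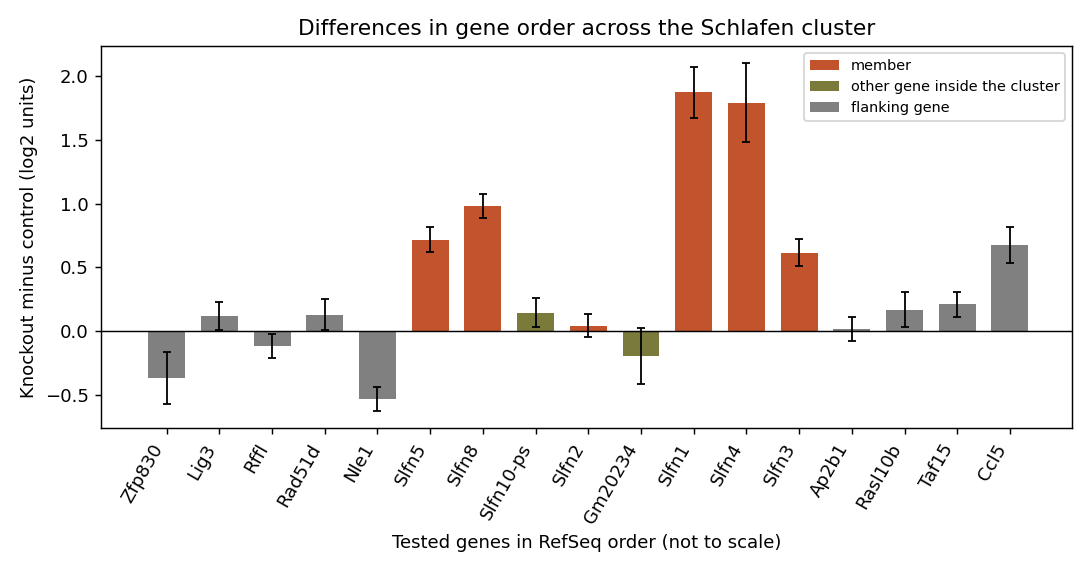
Knockout minus control (log2 units) for the tested genes across the Schlafen cluster, in RefSeq gene order and not to scale. Bars are differences of means over 2 arrays each and error bars are limma's SE. The bars of Slfn1 (1.87) and Slfn4 (1.79) are the tallest, those of Slfn2 (0.04) and Slfn10-ps (0.15) are near 0, and Nle1 (-0.53) is the lowest.

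Against all 12542 tested genes, the difference of Slfn4 was exceeded by 0.144%, that of Slfn8 by 0.837%, that of Slfn5 by 1.66% and that of Slfn3 by 2.35%. The 5 tested genes outside the family whose centred profile over the 4 arrays lay nearest to the mean profile of the 6 members were Nt5c3, Gm21188, Trim12a, Parp9 and Plekhn1. Their Euclidean distances from it were 0.053, 0.065, 0.082, 0.083 and 0.088 log2 units, and they differed between genotypes by 0.94 to 1.07. The 5 were picked as the nearest of all tested genes outside the family, so their nearness is set by that choice. Members lay from 0.20 (Slfn8) to 1.00 (Slfn1) from their own mean. That mean profile stood at -0.44 and -0.56 on the control arrays and 0.53 and 0.47 on the knockout arrays. Because the family was chosen on this contrast, a difference between genotypes in the profile, and in genes near it, follows from the choice.

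**Figure D4:**
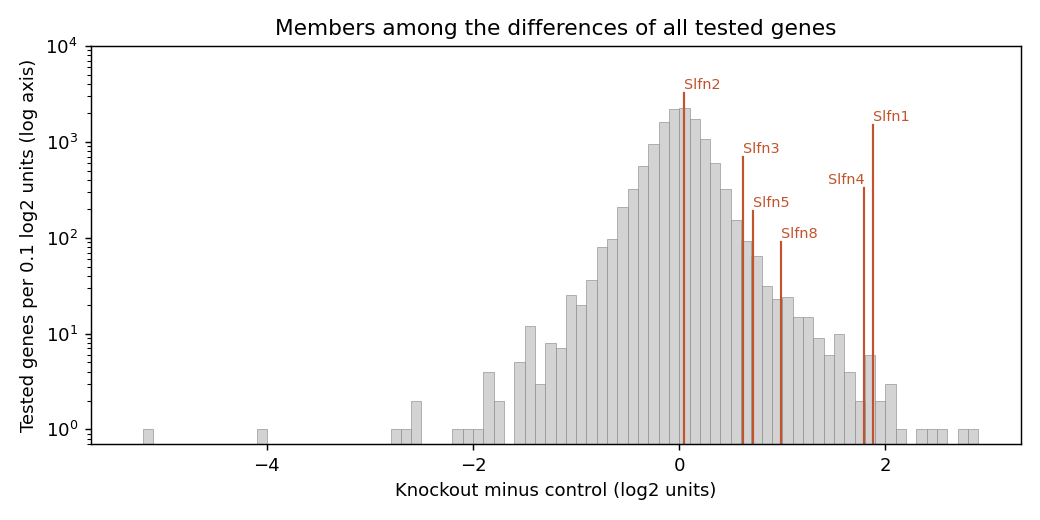
Distribution of knockout minus control (log2 units) over the 12542 tested genes in bins of 0.1, with a logarithmic count axis, and lines at the 6 measured members. Slfn2 stands in the centre of the distribution at 0.04, and the other members on the side of higher values, from 0.62 for Slfn3 to 1.87 for Slfn1.

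The pathway known to induce Schlafen genes was read from a list of 23 type I interferon signalling genes, of which 20 had a feature and 19 were tested. Of these 5 rose and 1 fell, against 3.3% and 3.49% of all tested genes, and the median difference was 0.15. Among ligands, Ifnb1, the gene of interferon beta, rose by 1.26 (SE 0.14, limma adjusted p = 0.012). Of the interferon alpha genes, Ifna1 differed by 0.29 without overlap of the groups (adjusted p = 0.29) and Ifna4 by 0.02 (adjusted p = 0.95). Ifna2, below the filter and not tested, differed by -0.41. The receptor chains differed by -0.04 for Ifnar1 (SE 0.11, adjusted p = 0.85) and 0.23 for Ifnar2 (SE 0.09, adjusted p = 0.19), and the kinases Jak1 and Tyk2 by -0.08 and 0.01, none of which passed.

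Downstream of the receptor, Stat2 and Irf9, whose products act in transcription after interferon, both rose. Stat2 read 7.60 and 7.42 in control and 8.41 and 8.32 in knockout, and rose by 0.86 (SE 0.10, limma adjusted p = 0.015). Irf9, the gene of a DNA-binding factor, read 8.16 and 8.14 in control and 8.70 and 8.61 in knockout, and rose by 0.51 (SE 0.09, adjusted p = 0.036).

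Irf7, the factor that amplifies interferon production, rose by 2.19 (SE 0.12, limma adjusted p = 0.0029), more than any measured Schlafen member. Usp18, a feedback inhibitor at the receptor, rose by 1.22 (SE 0.21, adjusted p = 0.036), and Socs3, a feedback inhibitor of cytokine receptors, fell by 0.61 (SE 0.10, adjusted p = 0.031). With the mean of the gene's features in place of the brightest, Socs3 differed by -0.92 and did not pass. The count of 6 called genes in this list dropped to 4 and 2 when control replicates 1 and 2 were left out in turn, and to 1 without either knockout array. The calls of Irf9 and Socs3 were lost with any array left out.

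The same response element core was counted in the promoters of genes outside the family. Of 307 genes with a window that were higher in knockout at the adjusted p of 0.05, 48 (15.6%) held it. Of 345 that were lower, 10 (2.9%) did, and of 9841 tested genes 370 (3.76%) did. Slfn5 and Slfn8 are members with the core that were higher, by 0.72 and 0.98. Slfn1, Slfn4 and Slfn3 lack it in these windows and were also higher, by 1.87, 1.79 and 0.62, and Slfn2, which lacks it too, differed by 0.04. The shared 9-base run was in the promoters of the members with the largest and with the smallest difference.

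Slfn1 is known for work on cell cycle entry, and a list of 23 genes of G1 cyclins, their kinases and inhibitors was read beside it. Of the 22 tested, 3 fell and none rose, against 3.49% and 3.3% of all tested genes, with a median of -0.12. An unadjusted limma p under 0.05 was reached by 8 of the 22, against 3099 of all 12542 tested genes. Ccnd1, the gene of cyclin D1, stood at 9.61 ± 0.007 in control and 9.01 ± 0.020 in knockout (mean ± SD, n = 2 each), and fell by 0.60 (SE 0.08, limma adjusted p = 0.022). Its partner kinase Cdk4 fell by 0.44 (SE 0.09, adjusted p = 0.044), and Cdkn2b, an inhibitor of that kinase, fell by 1.11 (SE 0.11, adjusted p = 0.0093). The list thus held falls in both a cyclin and an inhibitor. The count was 1 when replicate 1 of either genotype was left out and 0 when replicate 2 of either was, and the calls of Ccnd1 and Cdk4 were lost in all 4 cases.

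Slfn2, several long members and their human relatives are known for work on tRNA. A list of 21 genes of tRNA cleavage and stalled ribosomes was therefore read beside the family. Of the 15 tested, 0 passed in the limma fit, where 6.79% of all tested genes passed, and the median difference was -0.06. An unadjusted limma p under 0.05 was reached by 3 of the 15, against 3099 of all 12542 tested genes. Rnh1, the gene of the inhibitor of angiogenin-type ribonucleases, differed by -0.07 (SE 0.13, adjusted p = 0.81). Nsun2, a tRNA methyltransferase gene, differed by -0.35 (adjusted p = 0.10) and Map3k20, the gene of the kinase that senses stalled ribosomes, by -0.30 (adjusted p = 0.16).

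**Figure D5:**
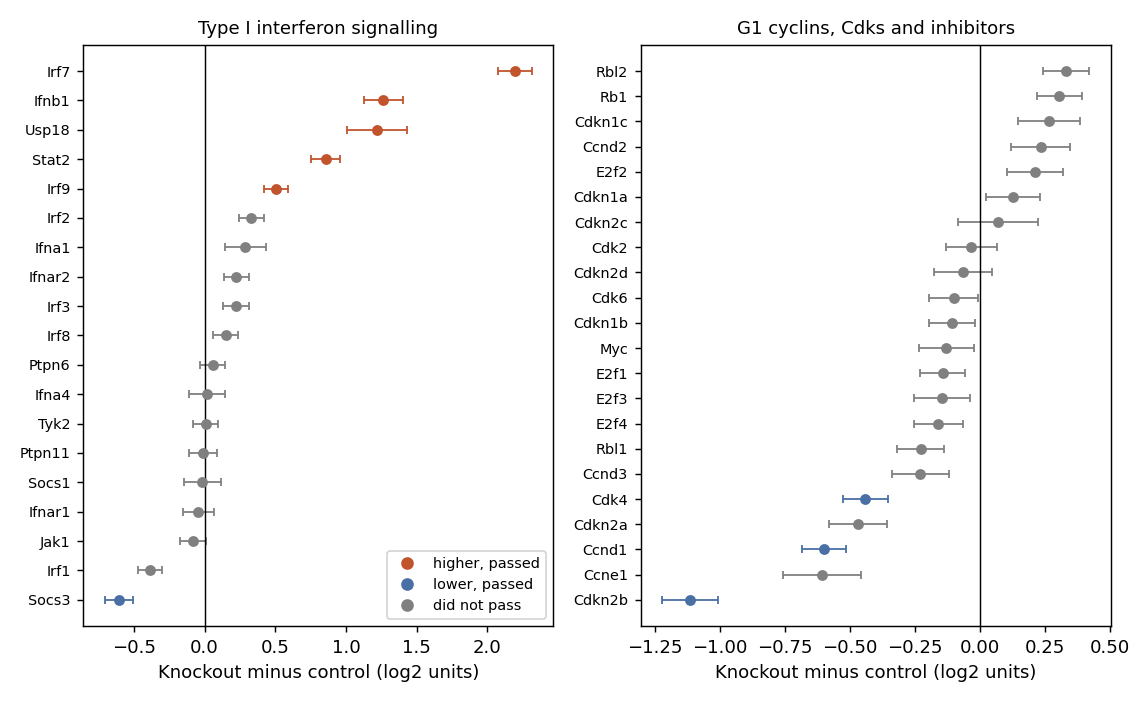
Knockout minus control (log2 units) with limma's SE for the 19 tested type I interferon signalling genes and the 22 tested genes of G1 cyclins, kinases and inhibitors, 2 arrays per genotype. Orange points passed an adjusted p of 0.05 as higher, blue points as lower and grey points did not pass. Irf7 (2.19) is the highest of the first list and Cdkn2b (-1.11) the lowest of the second.

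Because Schlafen genes are also expressed by lymphocytes and monocytes, markers of other cell types were read beside them. Of 33 such markers with a feature, 15 were below the filter, among them Cd3d, Cd3e, Cd3g and Cd8a of T cells, Ms4a1 and Cd79a of B cells and Ly6g of neutrophils. Others of the same lists were above it: Cd4, which macrophages can also express, read 5.81 and 6.01 in control and 6.36 and 6.43 in knockout (difference 0.49, limma adjusted p = 0.057), and the B cell marker Cd79b differed by 0.21 (adjusted p = 0.22), both without overlap of the groups. Also above it were the neutrophil markers Ngp, Cxcr2, S100a9 and Mpo, which differed by 0.14, 0.36, 0.11 and 0.26. The NK cell markers Ncr1 and Nkg7 were above it too and differed by 0.16 and 0.06. None of these markers above the filter passed. Of the 18 tested, 4 rose and 3 fell, against 3.3% and 3.49% of all tested genes. Monocyte markers moved in both directions: Ccr2, Ly6c2 and Ms4a4c rose by 0.83, 0.76 and 1.50, while Fn1 fell by 2.66 and F13a1 by 0.79. Of dendritic cell markers Bst2, itself interferon-inducible, rose by 0.89 and Itgax fell by 2.54. The count of 7 was 3 to 4 with an array left out, and Bst2, F13a1 and Ly6c2 lost their call whichever array it was. The summed log2 level of the 6 tested monocyte markers was 39.57 and 39.44 on the control arrays and 39.60 and 39.56 on the knockout arrays. These sums are near each other because rises and falls offset, so they do not measure the share of monocyte-like cells. The part of monocyte-like cells in the Schlafen values was not tested.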

How the data were processed

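Biotin-labelled RNA of 4 samples was measured on arrays. The authors background-adjusted and normalized the deposited log2 values by RMA, per the series' design text; oligo and RMA are named in the submitters' processing notes, and the genome build is not given in the sources used here. Genes came from the platform annotation: 23521 of 41345 features had 1 symbol, 1814 several and 16010 were unnamed. The highest-mean feature stood for a gene. Knockout and control, taken from the labels, were compared with limma 3.58.1 in R 4.3.3 (lmFit, eBayes, constant prior), two-sided, with Benjamini-Hochberg adjustment over 12542 genes. Members and lists were chosen with earlier results of these data known. The genes named were all members and relatives, up to 5 called genes per list, adjoining and called neighbours, and set signalling genes. Rnh1, Nsun2, Map3k20, Ap2b1, Ccl5, Gm20234, Lyz2, Ifna1, Ifna2, Ifna4, Jak1 and Tyk2 were added after their values were seen. So were the dim markers, Cd4, Cd79b, Ngp, Cxcr2, S100a9, Mpo, Ncr1 and Nkg7. In 20 simulations of 12542 genes with 200 changed, the comparison recovered 15.5% of 1.5-fold, 80.3% of 2-fold and 96.2% of 3-fold changes. Of the simulated calls 4.74% were false. The 200 changed genes were fewer than the 852 called in these data, so recovery here may differ. Promoters were aligned with Biopython 1.88 (match 1, mismatch -1, gap opening -2, extension -0.5).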

Additional observations from a re-analysis of the deposited data

How the results depend on the processing

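The members' differences kept their sign under quantile normalization, median centring and the mean of a gene's features; with 1 array left out Slfn2, at 0.04 as reported, ranged from -0.012 (without control replicate 2) to 0.10 (without control replicate 1). The median difference of the members was 0.81 with median centring and 0.84 to 0.86 with an array left out. The counts, in the order all genes (852 as reported), members (5), interferon signalling (6), G1 (3), tRNA (0), neighbours (1) and other cell types' markers (7), depended on the settings as follows. Without the filter they were 333, 3, 3, 1, 0, 0 and 6, the members being Slfn1, Slfn5 and Slfn8. With the stricter filter (mean of at least 4.53) all genes gave 1354, G1 5, tRNA 1 and neighbours 2, and with a trended prior variance 1584, 6, 1 and 2. Without pooling of variance all 7 counts were 0 in limma, with 2295 genes at an unadjusted p under 0.05. Neighbours gave 2 with quantile normalization, the mean of features and array weights. With an array left out the ranges were 96 to 174, 0 to 3, 1 to 4, 0 to 1, 0 to 0, 0 to 0 and 3 to 4; the members called were 3 without either control array and 0 without either knockout array. These fits have fewer samples. With replicate number as a block, all genes gave 312, members 4, interferon signalling 4, G1 1 and neighbours 0; the numbers share a label only, since deviations of same-numbered arrays correlated at -0.036 over tested genes. Calls over all genes split 414 higher and 438 lower as reported, and 374 and 576 with median centring. The cause of these shifts was not tested. Signal over background limits Slfn14, Slfnl1 and the 15 markers below the filter. Members have no second feature of their own, so that alternative gave no value.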
